A study of Mus musculus with 8 samples.

Results

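The region described is the Tnfrsf1b locus of the mouse and the dense run of accessible sites upstream of it, on chromosome 4 of build mm9. Its members are the peaks that overlap the window from 144790000 to 144900000, which are 26 of the 74207 peaks of the study. The gene lies near 144803000 to 144837000 on the minus strand, so its start is at the upper bound, and the run reaches from 144842507 to 144890678. By peak midpoint, 4 members lie beyond the 3′ end of the gene, 8 within the gene and 14 in the run. Peaks are called here by the distance of their midpoint from the approximate gene start, upstream or downstream. The locus was chosen by measured values, its accessibility with LPS against unstimulated cells and the density of its peaks, so values of LPS against unstimulated cells are given as a description. No p-value is printed for that comparison, and nothing is read from the count of members past its threshold.

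Open chromatin was mapped by ATAC-seq, which marks DNA that a transposase can reach. Macrophages had been grown from bone marrow of wild-type C57Bl/6 animals in CMG media with FBS. From each of 2 mice came an unstimulated culture, one with fenoterol, one with LPS and one with fenoterol followed by LPS, which makes 4 groups and 8 libraries with n = 2 mice per group. Fenoterol, an agonist of the β2 adrenergic receptor, was used at 1 µM for 15 min, and LPS, a bacterial lipopolysaccharide sensed by Toll-like receptor 4, at 100 ng/mL for 1 h. Cells given both had 15 min of fenoterol and then 1 h of LPS, so the agonist had been added earlier in that group than in the group with fenoterol alone. Fenoterol + LPS against fenoterol, and any contrast of the fenoterol effect without and with LPS, also hold this difference in time. The design cannot tell it apart from LPS. The peaks carry no gene names, so macrophage markers were not checked here. The shallowest library, unstimulated mouse 1, had 1426873 reads in peaks, against 3164446 to 4040292 for the other 7. Per the labels the mice are separate animals, and p-values measure the spread between them. A member held between 2 reads (exact 95% Poisson interval 0.242 to 7.22) and 353 reads (317 to 392) in a library, and these intervals cover counting error only. In bulk chromatin, a change in every cell and a change in the share of cells with an open site cannot be told apart.

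Tnfrsf1b encodes tumour necrosis factor receptor type II, a receptor of TNF without a death domain that signals through TRAF adaptors to NF-κB and is best engaged by membrane-bound TNF. It is carried mainly by immune and endothelial cells, and macrophages also shed it from their surface, where the soluble form binds TNF. Accessible sites away from a gene's start are often enhancers, DNA elements bound by transcription factors that can act on a promoter over a distance. In the RefSeq annotation of GRCm38.p6, the next genes above Tnfrsf1b on the chromosome are Gm36233, a long noncoding RNA, and Tnfrsf8, which encodes the related receptor CD30. Since that build is not the one of the files, which peaks of the run lie within these genes is not determined here, and a peak in the run is not assigned to Tnfrsf1b.

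The promoter is shown because a peak lies over the approximate start of the gene. That peak lies mostly within the gene, and how much of the bases shown it covers is not determined, since the builds differ. These are the 250 bases before the RefSeq start of Tnfrsf1b (GRCm38.p6, chromosome 4, minus strand), 5′ to 3′, with the single motif match in capitals.
Tnfrsf1b promoter: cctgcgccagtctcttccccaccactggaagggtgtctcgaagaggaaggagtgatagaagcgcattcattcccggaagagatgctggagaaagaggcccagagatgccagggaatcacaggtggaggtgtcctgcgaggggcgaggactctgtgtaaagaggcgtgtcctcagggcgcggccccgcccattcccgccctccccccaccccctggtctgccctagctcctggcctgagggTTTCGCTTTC
The capitals mark a match on the opposite strand to the core of the interferon-stimulated response element (GAAA, 2 bases of any kind, GAAA), which begins 10 bases before the start. Such a match is found in 2.98% of 32851 RefSeq promoters of the same length, searched on both strands. None was found for AP-1 (TGANTCA, 6.75% of promoters), the cAMP response element (TGACGTCA, 1.55%), its shorter core (TGACG, 17.8%), PU.1 (GAGGAAGT, 2.44%), C/EBP (TTGCNNAA, 9.56%) or the NF-κB consensus (7.25%). Overlap between motifs was allowed, and the full cAMP response element contains that core. A match is a description of these letters and not a binding site. The GC content of the 250 bases is 62.8%, against a median of 52.4% over all promoters.

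The run and the gene differed in how their level moved with LPS. Levels are RPKM scaled between libraries and are relative to reads in peaks and to peak length. Averaged over the 7.314 kb covered by its 14 peaks, the run stood at 37.9 and 34.3 RPKM in unstimulated cells of mouse 1 and mouse 2 and at 32.5 and 33.4 RPKM with fenoterol. With LPS it stood at 56.8 and 61.9 RPKM, and with fenoterol + LPS at 61.7 and 66.5 RPKM. All 4 libraries with LPS lay above all 4 without it, at 1.79 times their mean. The 8 peaks of the gene, which cover 4.923 kb, ranged from 58.0 to 66.0 RPKM without LPS and from 61.8 to 67.5 RPKM with it, so these ranges overlapped, and the ratio of the means was 1.05. The 4 peaks beyond the 3′ end averaged 26.9 to 30.5 RPKM without LPS and 28.2 to 35.3 RPKM with it, a mean over members that moved in opposite ways. These sums were not tested, since their members were chosen with the LPS response known.

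**Figure D1:**
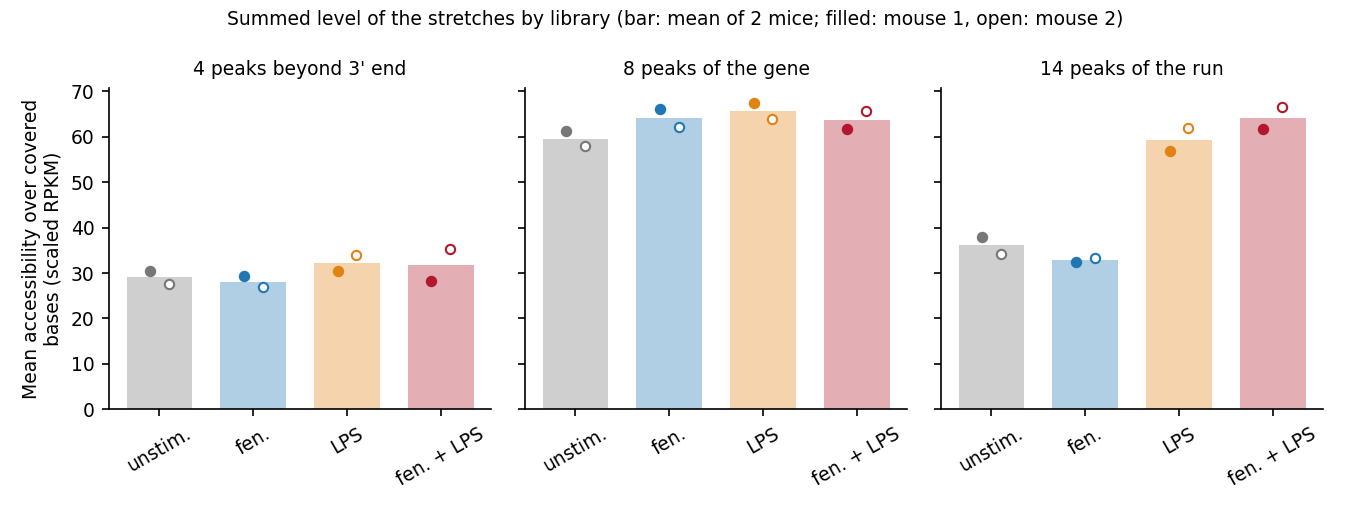
Mean accessibility over covered bases in scaled RPKM (y axis) for the peaks beyond the 3′ end, in the gene and in the upstream run, by treatment (x axis), with bars for the mean of 2 mice and points for each mouse. The run lies between 32.5 and 37.9 RPKM without LPS and between 56.8 and 66.5 RPKM with it, whereas the gene lies between 58.0 and 67.5 RPKM in all libraries.

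At the gene start accessibility was high in every group. The peak over the start, at 144836040 to 144837053 and 0.5 kb downstream by its midpoint, is the widest member at 1013 bp. Its scaled RPKM was 52.3 and 47.0 in unstimulated cells of mouse 1 and mouse 2, 51.4 and 47.9 with fenoterol, 64.5 and 55.6 with LPS, and 58.1 and 64.7 with fenoterol + LPS. Every library with LPS was above every library without it, but by little, from 55.6 against 52.3 RPKM at the nearest. Fenoterol + LPS against fenoterol gave a log2 change of 0.28 (SE 0.14, adjusted p = 0.194), on the scale of scaled RPKM + 4 used for all folds and log2 changes here. This did not pass the threshold of 0.05, although it did after quantile normalization (adjusted p = 0.0372) and after cyclic loess (0.0356). Its mean level over the 8 libraries, 55.2 RPKM, lay at percentile 94.1 of all peaks.

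Within the gene, 7 of 8 peaks did not pass the threshold for fenoterol + LPS against fenoterol, with log2 changes from -0.38 to 0.32. Of all tested peaks 13.7% passed it in either direction, so nothing is read from this count. The peaks 24.8, 13.3 and 6.1 kb downstream of the start were the tallest of the gene, at mean levels of 73.5, 76.5 and 79.4 RPKM, in that order. The peak 6.1 kb downstream had 82.3 ± 3.64 RPKM in unstimulated cells, 80.8 ± 5.77 after fenoterol, 80.8 ± 1.43 after LPS and 73.7 ± 3.41 after both (SD, n = 2 each). Of the 8, 6 lay at or above percentile 90 of level over all peaks. The peak 32.5 kb downstream, near the 3′ end, had 33.9 to 48.5 RPKM in the 4 libraries without LPS and 49.6 to 62.2 RPKM in the 4 with LPS, without overlap (log2 change 0.32, adjusted p = 0.181).

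One narrow site of the gene went the other way, and whether it is exonic or intronic is not determined here. The peak at 144832800 to 144833006, 4.1 kb downstream of the start and 206 bp wide, had 39.9 and 37.3 RPKM in unstimulated cells of mouse 1 and mouse 2 and 57.9 and 49.9 RPKM with fenoterol. It had 34.3 and 31.6 RPKM with LPS and 30.7 and 27.1 RPKM with both. Both fenoterol libraries were above the other 6, and all 4 LPS libraries were below all 4 without LPS. It fell with fenoterol + LPS against fenoterol by 0.82 on the log2 scale (SE 0.14, adjusted p = 0.000555), lower in both mice. Fenoterol against unstimulated cells gave a log2 change of 0.44 (95% interval 0.14 to 0.74) and an adjusted p of 0.507, which did not pass. The peak 17.8 kb downstream, at 144818989 to 144819418, had 57.4 and 50.4 RPKM in unstimulated cells, 64.4 and 55.1 with fenoterol, 62.7 and 58.7 with LPS, and 45.3 and 44.2 with both. Its 2 libraries with both agents were the lowest of the 8, and its log2 change was -0.38 against fenoterol (adjusted p = 0.069, called without either unstimulated library at 0.0147 and 0.0148) and -0.41 against LPS (adjusted p = 0.548).

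In the upstream run, 10 of 14 peaks rose with fenoterol + LPS against fenoterol and none fell. Over the whole locus 12 of 26 members rose and 2 fell, where 9.43% of all 66786 tested peaks rose and 4.32% fell. This comparison shares no library with LPS against unstimulated cells. The locus was proposed with results of both comparisons known, however, so the p-values describe these peaks and are not independent support. All 26 members were tested. The median log2 change was 0.80 in the run, -0.02 in the gene and 0.38 over all members, beside -0.03 over all tested peaks. The 12 risen peaks changed 1.48- to 4.54-fold, and all 12 were higher in both mice, were called on the 4 libraries of the comparison alone and were called by voom on recovered reads, which called 12.1% of tested peaks higher.

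**Figure D2:**
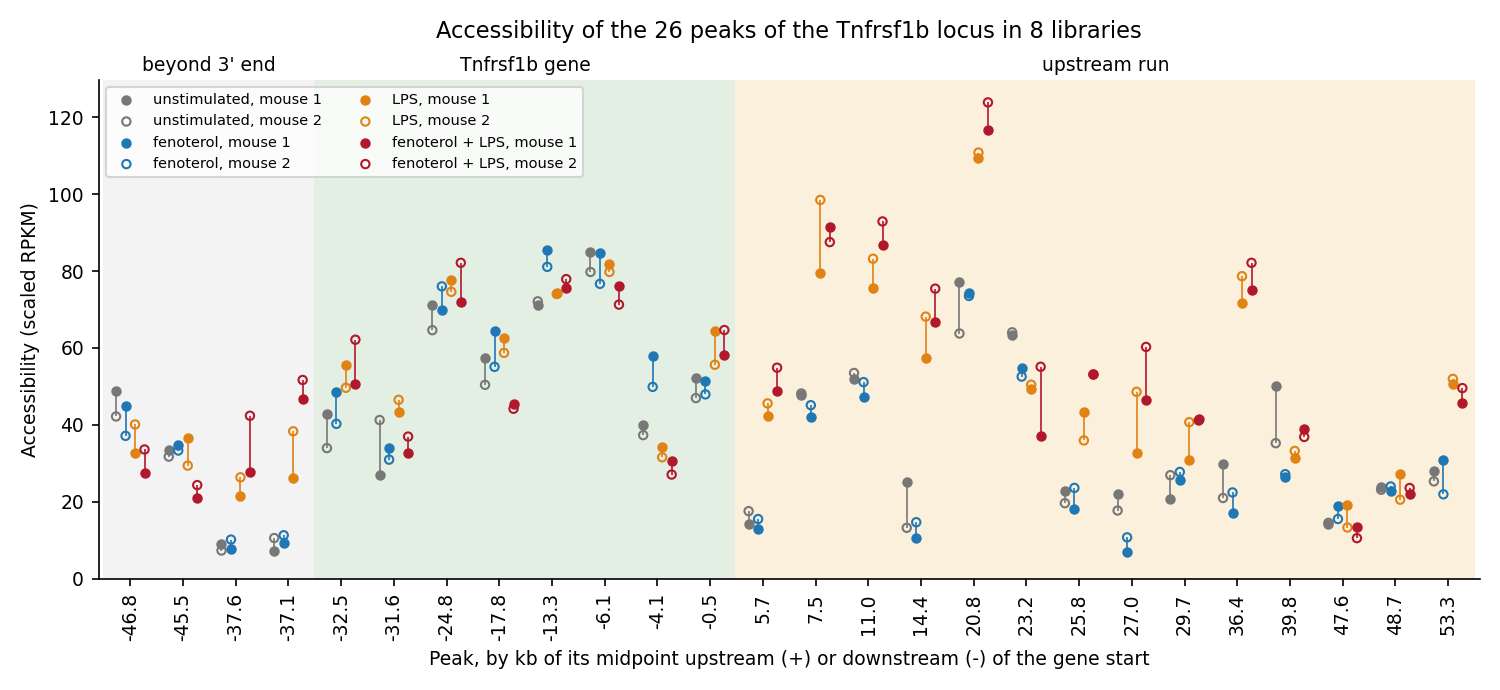
Scaled RPKM (y axis) of each of the 26 members in order along the locus (x axis, kb of the midpoint from the gene start), with filled points for mouse 1, open points for mouse 2 and a line joining the mice of a group. In 10 of 14 peaks of the run and 2 of 8 of the gene, the 4 LPS libraries lie above the 4 without LPS. This held for 13.1% of all peaks. Most peaks of the gene stand at similar levels in all groups.

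The 4 highest folds of the run were at peaks with at most 29.9 RPKM in every library without LPS. The peak 14.4 kb upstream, at 144851213 to 144851686, had 25.2 and 13.2 RPKM in unstimulated cells of mouse 1 and mouse 2, 10.6 and 14.7 with fenoterol, 57.4 and 68.2 with LPS, and 66.8 and 75.4 with both. It rose 4.54-fold with fenoterol + LPS against fenoterol (log2 change 2.18, SE 0.20, adjusted p = 7.63e-07), the highest fold of the members. The peak 27.0 kb upstream, at 144863783 to 144864190, had 22.0 and 17.7 RPKM in unstimulated cells, 6.94 and 10.7 with fenoterol, 32.7 and 48.6 with LPS, and 46.6 and 60.3 with both. Its fenoterol libraries were the lowest of the 8, with 9 and 17 reads, and its rise against them was 4.49-fold (log2 change 2.17, SE 0.20, adjusted p = 1.05e-06). The peak 36.4 kb upstream, at 144873093 to 144873792, went from 17.1 and 22.4 RPKM with fenoterol to 75.2 and 82.2 with both, a 3.50-fold rise with the smallest adjusted p of the members, 5.93e-07. In the states without fenoterol it had 29.9 and 21.0 RPKM unstimulated and 71.6 and 78.7 RPKM with LPS. The peak nearest to the gene, 5.7 kb upstream at 144842507 to 144842822, had 14.2 and 17.5 RPKM in unstimulated cells, 12.9 and 15.5 with fenoterol, 42.2 and 45.6 with LPS, and 48.9 and 54.9 with both. It rose 3.07-fold (adjusted p = 2.65e-06), and all LPS libraries lay above those without LPS.

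Of the other peaks of the run, which rose by less, those 20.8, 7.5 and 11.0 kb upstream were already tall without LPS. The tallest member, 20.8 kb upstream at 144857404 to 144858169, had 77.1 and 63.8 RPKM in unstimulated cells, 74.2 and 73.5 with fenoterol, 109 and 111 with LPS, and 117 and 124 with both. Its mean level lay at percentile 99.4 of all peaks, and its rise against fenoterol was 1.60-fold (adjusted p = 0.00429). The call was lost without the fenoterol library of mouse 1 (0.0626) and without either fenoterol + LPS library (0.0513 and 0.0894). The peak 7.5 kb upstream, at 144844246 to 144844730, had 47.8 and 48.2 RPKM in unstimulated cells, 42.1 and 45.1 after fenoterol, 79.5 and 98.5 after LPS, and 91.3 and 87.5 after both, and rose 1.96-fold (adjusted p = 8.98e-05). Its neighbour 11.0 kb upstream, at 144847619 to 144848423, had 52.0 and 53.5 RPKM in unstimulated cells, 47.2 and 51.1 after fenoterol, 75.7 and 83.2 after LPS, and 86.7 and 92.9 after both, and rose 1.77-fold (adjusted p = 0.000332). At both peaks every LPS library was above every library without LPS. The peak at the far end, 53.3 kb upstream at 144889823 to 144890678, had 27.9 and 25.3 RPKM in unstimulated cells, 30.8 and 21.9 with fenoterol, 50.6 and 52.0 with LPS, and 45.8 and 49.6 with both. It rose 1.72-fold (adjusted p = 0.00158), again with no overlap between libraries with and without LPS.

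The remaining risen peaks of the run lay on either side of the peak 27.0 kb upstream. The peak 25.8 kb upstream, at 144862609 to 144862903, had 22.8 and 19.6 RPKM in unstimulated cells, 18.1 and 23.6 with fenoterol, 43.3 and 35.9 with LPS, and 53.3 and 53.1 with both, and rose 2.31-fold (adjusted p = 3.64e-05). The peak 29.7 kb upstream, at 144866331 to 144867090, had 20.6 and 26.9 RPKM in unstimulated cells, 25.6 and 27.7 with fenoterol, 30.9 and 40.7 with LPS, and 41.6 and 41.1 with both. Its rise of 1.48-fold was the smallest called (adjusted p = 0.0239), and the call was lost when any 1 of the 4 fenoterol or fenoterol + LPS libraries was left out (0.0661 to 0.168) and without a mean trend (0.107).

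The run was not uniform: 4 of its 14 peaks did not pass the threshold and stood among those that rose. The peak 23.2 kb upstream had 63.5 and 64.1 RPKM in unstimulated cells, 54.8 and 52.5 with fenoterol, 49.4 and 50.4 with LPS, and 37.2 and 55.1 with both. It lies between the tallest member and the peak 25.8 kb upstream, and its log2 change for fenoterol + LPS against fenoterol was -0.23 (95% interval -0.54 to 0.09). The peak 39.8 kb upstream, at 144876605 to 144877021, had 50.2 and 35.2 RPKM in unstimulated cells, 26.4 and 27.2 with fenoterol, 31.3 and 33.2 with LPS, and 38.9 and 36.9 with both. Its fenoterol libraries were the lowest of the 8, and its log2 change against them was 0.44 (adjusted p = 0.0674), called without either unstimulated library (0.0233 and 0.0196). The neighbouring pair 47.6 and 48.7 kb upstream was low in all groups, at mean levels of 14.9 and 23.4 RPKM. The peak 47.6 kb upstream had the lowest level of the locus, with 5 to 18 reads per library. It had 14.1 and 14.5 RPKM in unstimulated cells, 18.9 and 15.5 after fenoterol, 19.2 and 13.3 after LPS, and 13.3 and 10.5 after both. Fenoterol lay above unstimulated cells and both agents lay below them, without overlap, whereas the LPS libraries overlapped all other groups (log2 change -0.41 for both agents against fenoterol, adjusted p = 0.331).

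Beyond the 3′ end a close pair of sites behaved like the run. The peak at 144799821 to 144800026, 37.1 kb downstream of the start, had 7.28 and 10.5 RPKM in unstimulated cells, 9.18 and 11.3 with fenoterol, 26.2 and 38.3 with LPS, and 46.8 and 51.7 with both. It rose 3.75-fold with fenoterol + LPS against fenoterol (log2 change 1.91, SE 0.21, adjusted p = 7.07e-06). The fenoterol values of this peak rest on 6 and 9 reads, and its lowest value rests on 2 reads in the unstimulated library of mouse 1. Its neighbour 37.6 kb downstream, at 144799214 to 144799543, had 9.07 and 7.30 RPKM in unstimulated cells, 7.63 and 10.1 with fenoterol, 21.5 and 26.3 with LPS, and 27.6 and 42.4 with both, and rose 2.99-fold (adjusted p = 0.000239). At both sites all LPS libraries were above all others. Farther out, the peak at 144791326 to 144791750, 45.5 kb downstream, had 33.4 and 31.7 RPKM in unstimulated cells, 34.8 and 33.3 with fenoterol, 36.7 and 29.4 with LPS, and 20.9 and 24.3 with both. It fell with both agents against fenoterol by 0.52 on the log2 scale (SE 0.16, adjusted p = 0.0296). That call was lost when any 1 of the 4 libraries compared was left out (0.0701 to 0.232) and without a mean trend (0.102). The outermost member, 46.8 kb downstream, ranged from 37.1 to 48.8 RPKM without LPS and from 27.4 to 40.1 RPKM with it (adjusted p = 0.11).

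**Figure D3:**
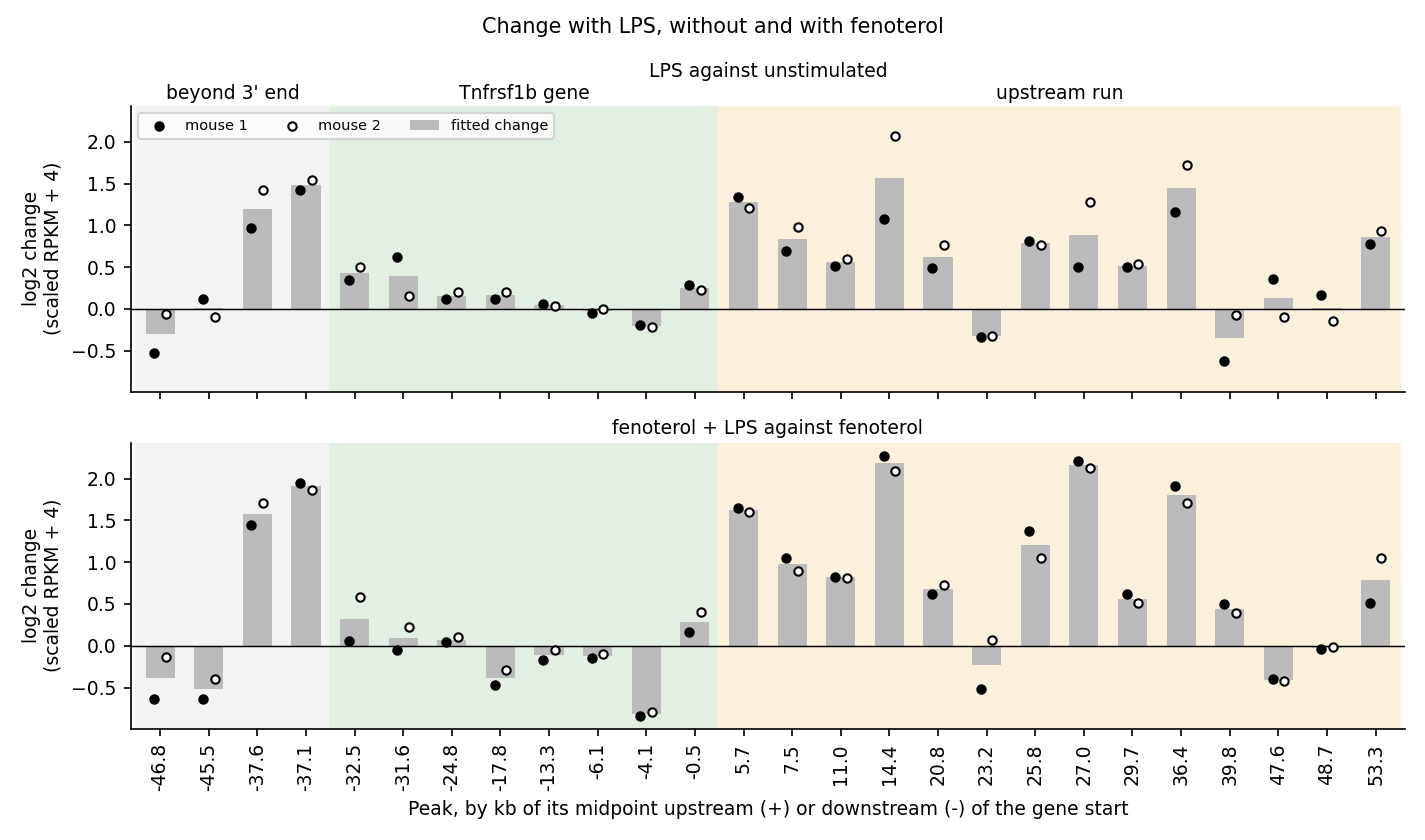
Log2 change of scaled RPKM + 4 (y axis) with LPS in cells without fenoterol (upper panel) and with fenoterol (lower panel) for the 26 members in order along the locus (x axis, kb from the gene start), with bars for the fitted change and points for each mouse. The lower panel is fenoterol + LPS against fenoterol, which also holds the longer time since the agonist. In the lower panel 12 peaks rose, 10 of them in the run and 2 beyond the 3′ end, and the same 12 have the highest changes of the upper panel, from 0.52 to 1.57; the comparison of the upper panel chose the locus.

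The LPS response of cells without fenoterol is given here as a description. Past the same threshold, 12 members were higher with LPS than in unstimulated cells and none was lower, where 6.53% of tested peaks were higher and 3.54% lower. Nothing is read from that count, since the comparison chose the locus. In this fit they are the same 12 peaks that rose with fenoterol + LPS against fenoterol. Nothing is read from this match either, since the locus was proposed with both comparisons known. The share of risen peaks common to both comparisons over all tested peaks was not computed. By voom the list without fenoterol held the peak 32.5 kb downstream in place of the one 29.7 kb upstream. Fitted on the 4 libraries of the comparison alone it held 9, without the peaks 11.0, 20.8 and 29.7 kb upstream. Their folds were 1.43 to 2.97 without fenoterol and 1.48 to 4.54 with it. The LPS change was larger with fenoterol than without in 14 of 26 members, of which 11 of 14 in the run and 1 of 8 in the gene, beside 52.2% of all tested peaks. A test of this difference, the interaction of fenoterol and LPS, called 0 members by limma-trend and 0 by voom, with 6 members at an unadjusted p under 0.05. Over all tested peaks it called 0 by limma-trend (0%) and 4 by voom (0.00599%), with 6.33% at an unadjusted p under 0.05. The largest interaction was at the peak 27.0 kb upstream, with a log2 value of 1.28 (95% interval 0.68 to 1.88, adjusted p = 0.433). In 14 members all 4 LPS libraries were above all 4 others and in 1 all were below, where this held for 13.1% and 10.5% of all peaks.

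Fenoterol before LPS was not found to change a member relative to LPS alone. Fenoterol + LPS against LPS called 0 of 26 members by limma-trend and 0 by voom, with 4 at an unadjusted p under 0.05. Over all tested peaks, limma-trend called 0 (0%), voom called 0.602%, and 6.66% had an unadjusted p under 0.05. This comparison shares the LPS libraries with the one that chose the locus. Log2 differences of the members ran from -0.47 to 0.57, and the lowest and highest bounds of their 95% intervals were -0.87 and 1.02. The median was 0.15 in the run and -0.06 in the gene, beside -0.01 over all tested peaks. The difference was positive in 10 of 14 peaks of the run and in 4 of 8 of the gene. Over all members 16 of 26 had a positive difference, beside 49.1% of all tested peaks. Over all members the 2 groups did not overlap at 9 peaks that were higher and 6 that were lower with both agents, where 22% and 19.9% of all peaks did so. The largest difference was at the peak 37.1 kb downstream, 26.2 and 38.3 RPKM with LPS against 46.8 and 51.7 RPKM with both (log2 0.57, 95% interval 0.13 to 1.02, adjusted p = 0.617). The 3 highest differences also included its neighbour 37.6 kb downstream (0.46) and the peak 25.8 kb upstream (0.40). The 3 lowest were at the peaks 45.5 kb (-0.47), 17.8 kb (-0.41) and 31.6 kb downstream (-0.34). The last of these, at 144805187 to 144805519, had 27.0 and 41.3 RPKM in unstimulated cells, 34.0 and 30.9 with fenoterol, 43.5 and 46.5 with LPS, and 32.7 and 36.9 with both. At the peak over the gene start the difference was 0.03 (95% interval -0.25 to 0.32).

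**Figure D4:**
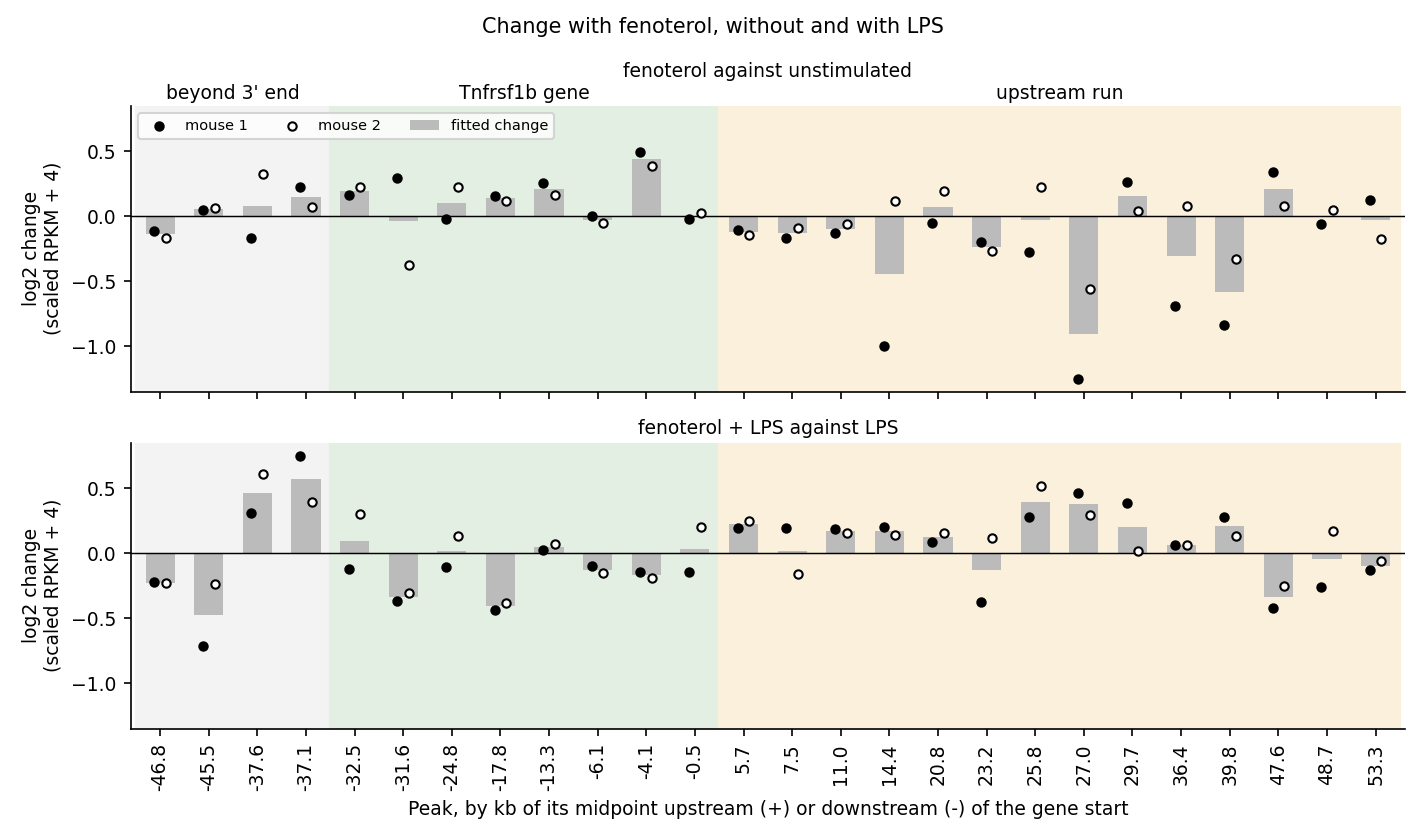
Log2 change of scaled RPKM + 4 (y axis) with fenoterol in cells without LPS (upper panel) and with LPS (lower panel) for the 26 members in order along the locus (x axis, kb from the gene start), with bars for the fitted change and points for each mouse. Time since fenoterol was longer in the lower panel. No member passed the threshold in either panel; fitted changes run from -0.90 to 0.44 without LPS and from -0.47 to 0.57 with it.

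Fenoterol alone for 15 min also left all members short of the threshold. Against unstimulated cells, 0 of 26 were called by limma-trend and 0 by voom, with 4 at an unadjusted p under 0.05. Over all tested peaks, limma-trend called 0.00749%, voom called 0.0464%, and 7.43% had an unadjusted p under 0.05. Log2 changes of the members ran from -0.90 to 0.44, and the lowest and highest bounds of their 95% intervals were -1.33 and 0.74. The lowest was at the peak 27.0 kb upstream, 22.0 and 17.7 RPKM unstimulated against 6.94 and 10.7 RPKM with fenoterol (adjusted p = 0.258), followed by the peak 39.8 kb upstream at -0.58 (adjusted p = 0.402) and the peak 14.4 kb upstream at -0.44 (adjusted p = 0.651). At the last of these mouse 1 was lower with fenoterol and mouse 2 higher. The highest was at the peak 4.1 kb downstream, given above. These 4, the members with an unadjusted p under 0.05, were chosen for naming after their values were seen. The median was -0.11 in the run and 0.12 in the gene, beside -0.02 over all tested peaks. The change was positive in 3 of 14 peaks of the run and in 6 of 8 of the gene. Over all members it was positive in 12 of 26, beside 46.6% of all tested peaks. When unstimulated mouse 2 was left out and its group rested on the shallow library alone, 4 peaks of the run were called lower, those 14.4, 27.0, 36.4 and 39.8 kb upstream (adjusted p = 0.0114, 0.0145, 0.0466 and 0.00786). In the same fit 5.32% of all tested peaks were called. The interaction then called 3 members, those 14.4, 27.0 and 39.8 kb upstream, and 0.416% of all tested peaks.

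The locus is among the densest of its size. Midpoints of neighbouring peaks of the run lie 1.07 to 7.82 kb apart, with a median of 3.37 kb. In windows of 110001 bases over the genome, the median number of peaks in the 14392 windows that held any was 4. Of these windows, 1 held as many as the 26 of the locus. With the windows shifted along the genome the most was 24, and no window held 26. As many as 12 peaks risen with fenoterol + LPS against fenoterol were found in 1 window under either placing, and 12 higher with LPS against unstimulated in 0. The windows lay on a fixed grid that did not follow the bounds of the locus, so the locus was split and never counted whole. Whether the window with 26 peaks, or a window with 12 risen peaks, held part of the locus is not determined here. The adjoining windows of equal size on chromosome 4 held 12 peaks below the locus and 2 above it. With fenoterol + LPS against fenoterol, 0 of the 12 rose and 1 fell, at a median log2 change of -0.12, and both of the 2 rose. Density was part of how the locus was chosen, so these counts are a description. The members next to the bounds are the outermost peaks described above. The first peak outside it below, at 144786537 to 144786736, had 32.3 to 52.0 RPKM without LPS and 25.6 to 37.8 RPKM with it. The first outside it above, at 144912024 to 144912441, had 3.58 to 15.8 RPKM without LPS and 11.7 to 42.1 RPKM with it.

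Peaks with a like profile were found elsewhere in the genome. Over the 8 libraries, which fall into those with and without LPS, the mean level of the run, as log2 of RPKM + 4, correlated most closely with that of a peak on chromosome 1 at 93147855 to 93148368 (Pearson r = 0.9986). That peak ranged from 31.2 to 36.4 RPKM without LPS and from 51.8 to 60.3 RPKM with it. The next were on chromosome 17 at 50296640 to 50297561 (r = 0.9975) and on chromosome 19 at 21152920 to 21153423 (r = 0.9966), which went from 17.7 to 20.3 and from 11.2 to 16.3 RPKM without LPS to between 30.1 and 35.7 and between 39.4 and 53.2 RPKM with it. They are the closest of all tested peaks outside the locus, so these values are a description without a test.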

How the data were processed

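ATAC-seq libraries of macrophages from 2 mice in 4 groups were analysed from 1 table, in which the authors deposited an RPKM value for each of 74207 peaks and 8 libraries on mm9. Cutadapt, Bowtie2, MACS2 and HOMER are named in the submitters' processing notes; for versions, duplicate removal, a Tn5 shift and pooling before calling, the answer is not given in the sources used here. In every library 100% of values gave whole reads to within 0.01 read once multiplied by peak length, so the deposited RPKM is relative to reads in peaks and reads were recovered. Peaks without reads appear to be set to 1 read; no member was that low.

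Values were divided by median-ratio size factors (0.9401 to 1.0372), and log2(value + 4) was taken, which understates changes of low peaks. A filter on mean level removed the lowest 10% (below 9.62 RPKM), and the other 66786 peaks were fitted in R 4.3.3 by limma-trend (limma 3.58.1, 4 group means over 8 libraries, Benjamini-Hochberg adjustment over all tested peaks, threshold 0.05). The spread has 4 residual degrees of freedom, moderated by a prior worth 16.4, so p-values rest largely on a spread shared by all peaks; intervals are from the same fit. Alternatives were voom on recovered reads, other scalings, pseudocounts and filters, no mean trend, the libraries compared alone, the mouse as a block, and leaving out each library.

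The labels give same-numbered libraries to 1 mouse, which pairs them; deviations of the mice from their group means correlated across groups at 0.0223 to 0.0713. Members, tests and motifs were chosen with earlier results of these data known. Peaks named were the 1 over the gene start, the 3 highest and 3 lowest in fenoterol + LPS against fenoterol and against LPS, the tallest, the widest and each one called; others were added for description. Genes of the TNF pathway and cell type markers could not be placed on peaks, since no annotation of mm9 was used here, and motifs in peaks were not searched for the same reason.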

Additional observations from a re-analysis of the deposited data

Results flagged for a closer look

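At 8 members the effect of fenoterol went opposite ways without and with LPS in both mice, where 13.3% of all tested peaks did so. Time since fenoterol was longer in cells that also had LPS, and this cannot be told apart from LPS here. The differences of the fenoterol effects (interaction, log2) were -0.531 at 45.5 kb, -0.544 at 17.8 kb and -0.61 at 4.1 kb downstream of the gene start. Upstream they were 0.346 at 5.7 kb, 0.265 at 11.0 kb, 1.28 at 27.0 kb, 0.791 at 39.8 kb and -0.546 at 47.6 kb. At 3 members the effect of LPS went opposite ways without and with fenoterol in both mice, where 7.48% of tested peaks did so. These were the peaks 17.8 kb downstream (-0.544), 13.3 kb downstream (-0.16) and 39.8 kb upstream (0.791). The differences were tested by the interaction in limma, and none of them passed, with adjusted p from 0.433 at the peak 27.0 kb upstream to 0.958 at the peak 13.3 kb downstream.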

How the results depend on the processing

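The counts of called members stayed within 1.5 times in every alternative except when 1 library was left out. With libraries left out in turn, fenoterol + LPS against fenoterol called 11 to 16 members (5.58% to 18.9% of all tested peaks), LPS against unstimulated 7 to 14 (3.11% to 18.7%), fenoterol against unstimulated 0 to 4 (0% to 5.32%), the interaction 0 to 3 (0% to 0.416%), and fenoterol + LPS against LPS 0 throughout (0% to 0.0344%). The 7 came without the LPS library of mouse 2, and the 4 and 3 without the unstimulated library of mouse 2. With the replicate block (the mouse), fenoterol + LPS against fenoterol called 15 members in place of 14, and 16 by voom, LPS against unstimulated 12 and 13, and the other comparisons 0; the block moved no count by over 1.5 times. The ratio of the run with and without LPS was 1.80 on values as deposited. Of windows on a fixed grid over the genome, which split the locus itself, 1 held as many peaks as the locus and 0 did when shifted. For named peaks, 649 of 674 recomputed values kept direction and side of the threshold. The near-zero changes of the peak over the gene start reversed 4 times: with libraries left out, fenoterol + LPS against LPS ran from -0.069 to 0.131 (main 0.031) and fenoterol against unstimulated from -0.0701 to 0.0738 (main 0.0018). In the shallow unstimulated library of mouse 1, members rest on as few as 2 reads (37.1 kb downstream) and 4 reads (37.6 kb downstream).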
